A study of Caenorhabditis elegans with 3 samples.

Results

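Loss of the Argonaute CSR-1 was compared directly with loss of P granules in dissected gonads of Caenorhabditis elegans. The comparison was defined by library: the 4 csr-1 RNAi libraries against the 4 P granule RNAi libraries, 8 of the 12 libraries of the series. All animals were young adult hermaphrodites of the wild-type strain N2. They were the F1 progeny of worms fed, from the first larval stage and at 24 °C, bacteria that make double-stranded RNA. The csr-1 RNAi group received a csr-1 clone of the Ahringer library. The P granule RNAi group received a combined RNAi, which background knowledge of this study gives as directed at the helicase genes glh-1 and glh-4 and the scaffold genes pgl-1 and pgl-3. The empty vector group, fed bacteria with the vector alone, stayed out of the test, one alternative fit apart, and is given as a level only. Each library pooled 400 to 500 germlines cut at the bend of the gonad arm, so that a library is a mean over many animals and holds somatic gonad cells as well as germ cells. RNAi lowers a transcript and does not remove the gene. Each group has 4 libraries, named orig, 1, 2 and 3, which the design text gives as biological replicates. P-values measure the spread between these libraries, and the meaning of orig was not given in the sources used here.

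CSR-1 is a slicing Argonaute of the germline. It is loaded with 22G small RNAs, which the RNA-dependent RNA polymerase EGO-1 makes on the transcripts of most germline-expressed genes, and it is known for licensing germline transcription, for trimming maternal mRNAs and for chromosome segregation in the embryo. P granules are condensates of RNA and protein on the cytoplasmic face of germ cell nuclear pores, built on the scaffold proteins PGL-1 and PGL-3 and on the Vasa-like helicases GLH-1 and GLH-4. CSR-1, the PIWI protein PRG-1 and other Argonautes reside in them. The comparison asks which germline functions differ between gonads short of the Argonaute and gonads short of the granule that holds it.

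Values are normalised reads, that is read numbers scaled by each library's size factor, and fold changes are csr-1 RNAi minus P granule RNAi on the log2(value + 1) scale. Values of single libraries stand in the order orig, 1, 2 and 3, and means are given ± SD with n = 4 libraries. A gene was called when limma's moderated test over all tested genes gave a Benjamini-Hochberg adjusted p below 0.05, and each adjusted p given for a gene comes from it. The libraries held 18.4 to 31.9 M reads in genes, and 24.4 ± 5.47 M in csr-1 RNAi against 23.3 ± 4.92 M in P granule RNAi (exact permutation p = 0.714, two-sided; 0.0286 is the smallest p that 4 against 4 libraries allow).

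Some libraries stood apart before any gene was compared. Transcript length was the first such feature. Levels were taken relative to the mean of each library's own group, so the values show spread within a group and no difference between groups. In csr-1 RNAi library 3 the longest of 4 equal length classes of genes stood at −0.85 against the shortest class on the log2 scale. In csr-1 RNAi library orig the difference was 0.74 the other way. The other 2 csr-1 RNAi libraries were at 0.08 and 0.11, and the P granule RNAi libraries at 0.31, −0.11, −0.05 and −0.22. Levels of sperm and intestine transcripts were the second feature, and they cannot tell cell content apart from RNA per cell. The summed level of 31 major sperm protein genes was 858, 3491, 18811 and 43492 in the csr-1 RNAi libraries, against 11847, 5215, 24797 and 10244 in the P granule RNAi libraries. The summed level of 28 intestine markers was 51228, 29283, 25763 and 13353 in csr-1 RNAi, against 5979, 15964, 15905 and 57109 in P granule RNAi. For both lists the groups overlapped and single libraries of a group differed far more than the group means.

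**Figure D1:**
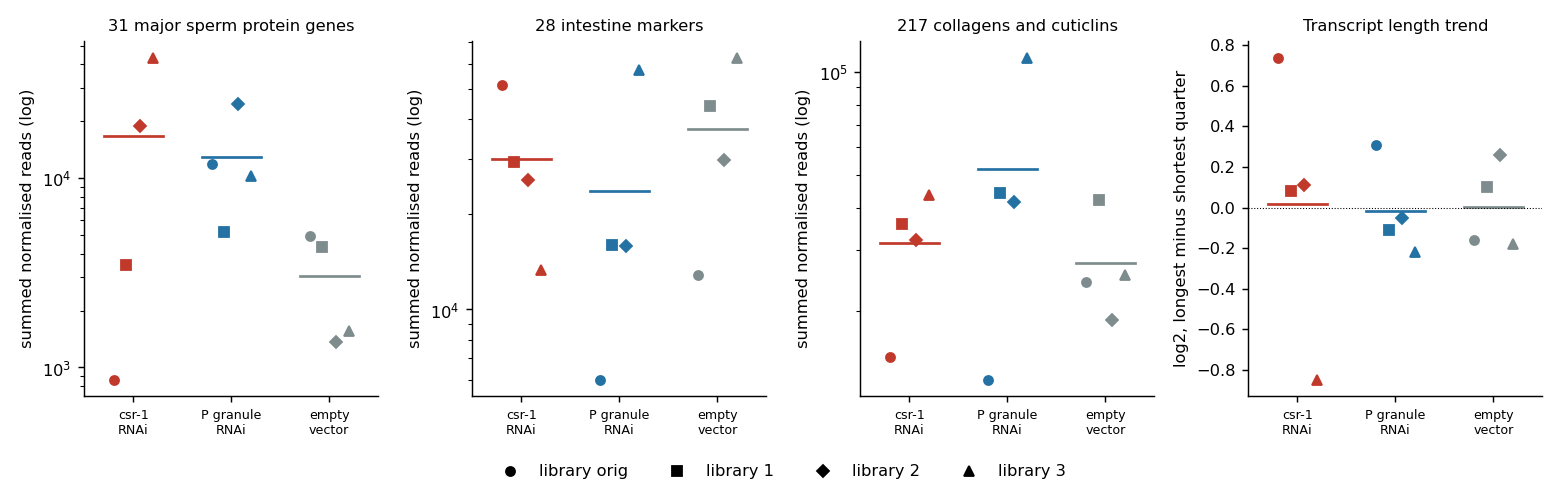
Summed normalised reads (log axes) of 31 major sperm protein genes, 28 intestine markers and 217 collagens and cuticlins, and the difference in log2 level between the longest and the shortest of 4 equal length classes of the tested genes, in each of the 12 libraries; symbols mark the library name and bars the arithmetic mean of the group. The length difference is relative to the mean of each library's own group and shows no difference between groups. The csr-1 RNAi libraries orig and 3 lie at opposite ends of the length trend, at 0.74 and −0.85, and of the sperm protein sum, at 858 and 43492.

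The RNAi targets served as a check of the labels, with the P granule targets taken from background knowledge. A fold change between the RNAi groups also holds any change of a target in the group not aimed at it. The empty vector level is therefore given beside each. The csr-1 transcript had 6025, 3827, 3045 and 2445 normalised reads in the csr-1 RNAi libraries, against 15757, 15005, 16887 and 14389 in the P granule RNAi libraries (log2 fold change −2.1, SE 0.25, adjusted p = 0.00437). The groups did not overlap, and the empty vector mean was 23553 ± 1583, so csr-1 RNAi left a part of the transcript in place, and the P granule RNAi libraries also lay below the empty vector mean. pgl-1, a scaffold gene of the granule, had 22619, 23595, 20337 and 20346 normalised reads in the csr-1 RNAi libraries, against 1495, 2418, 2212 and 2746 in the P granule RNAi libraries (log2 fold change 3.32, SE 0.19, adjusted p = 0.000159). The second scaffold gene, pgl-3, had 11183, 11098, 9447 and 9646 normalised reads in the csr-1 RNAi libraries, against 2181, 2039.8, 1489 and 2012 in the P granule RNAi libraries (log2 fold change 2.43, SE 0.15, adjusted p = 0.000174). The csr-1 RNAi libraries lay near the empty vector means of 20905 ± 3894 for pgl-1 and 12102 ± 1719 for pgl-3. The helicase gene glh-4 had 19596, 16243, 17999 and 12856 normalised reads in the csr-1 RNAi libraries, against 1530.1, 1437, 1496 and 1596 in the P granule RNAi libraries (log2 fold change 3.44, SE 0.14, adjusted p = 2.99e-05). The other Vasa-like target, glh-1, had 74352, 64398, 61186 and 55940 normalised reads in the csr-1 RNAi libraries, against 16538, 16164, 18726 and 16989 in the P granule RNAi libraries (log2 fold change 1.90, SE 0.13, adjusted p = 0.000273). For both helicase genes the csr-1 RNAi libraries stood above every empty vector library. The empty vector means were 7145 ± 1213 for glh-4 and 24978 ± 5555 for glh-1. For glh-4 the P granule RNAi libraries lay below every empty vector library. For glh-1 they lay below the mean, yet P granule RNAi library 2 (18726) was above empty vector library 3 (18080). The glh-1 empty vector mean lay nearer the P granule RNAi mean of 17104 ± 1133 than the csr-1 RNAi mean of 63969 ± 7750. Much of the glh-1 difference was thus the higher csr-1 RNAi level.

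**Figure D2:**
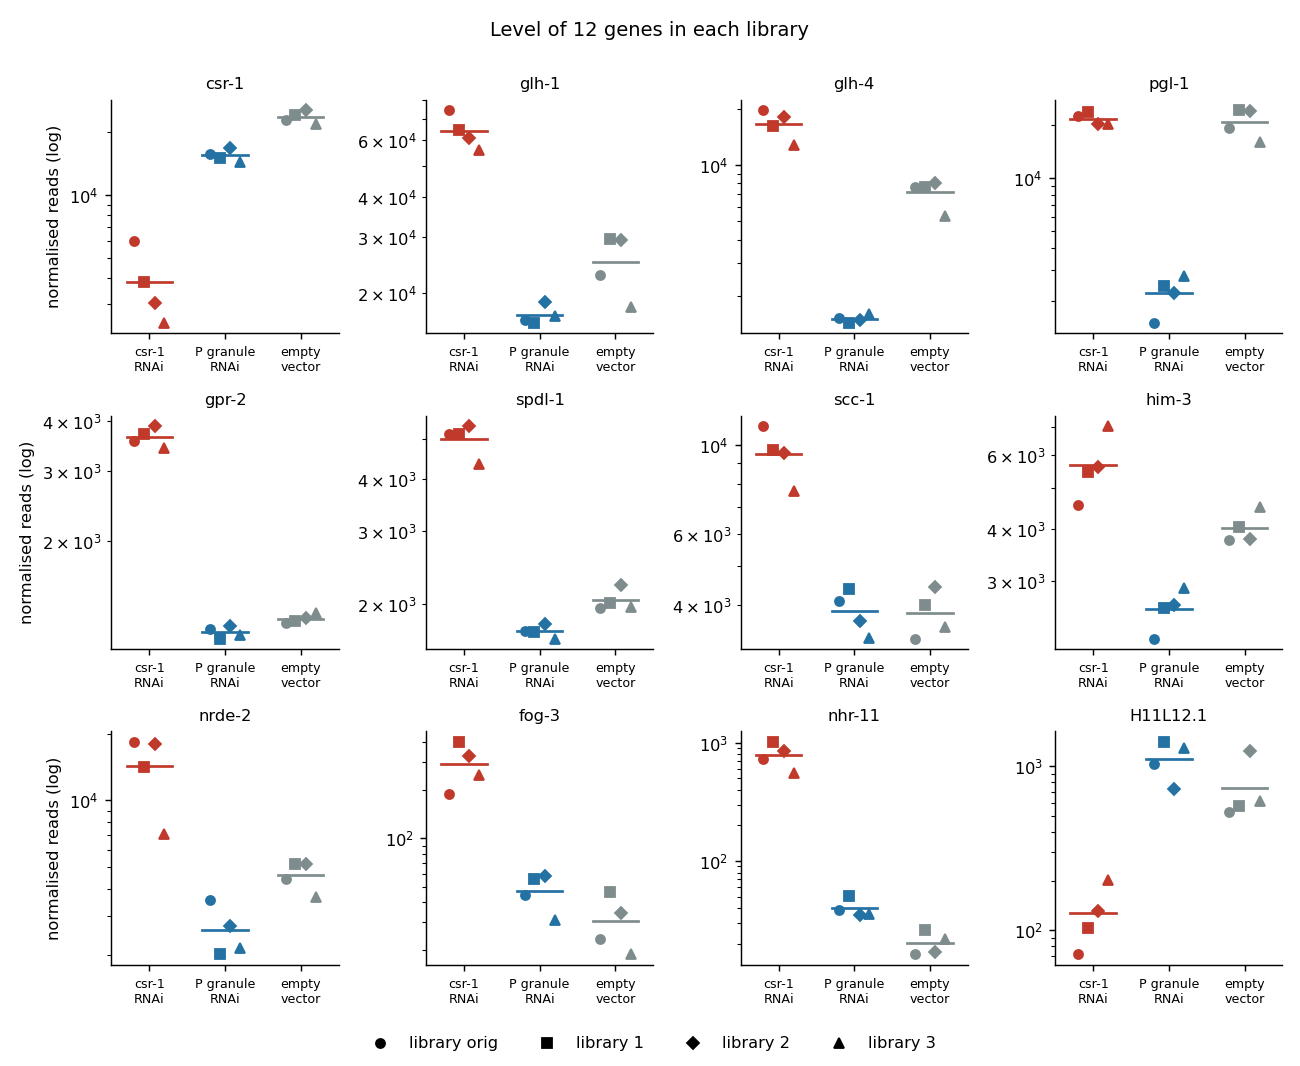
Normalised reads of 12 genes in each library on log axes, with csr-1 RNAi at the left, P granule RNAi in the middle and the empty vector at the right; symbols mark the library name and bars the mean of 4 libraries. For all 12 genes the 4 csr-1 RNAi libraries lie beyond the 4 P granule RNAi libraries, and for gpr-2, spdl-1 and scc-1 the P granule RNAi and empty vector levels lie close together.

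Of 45836 gene entries, 10973 passed the filter on low values (at least 10 normalised reads in at least 4 of the 8 libraries). A gene could pass it through the 4 libraries of a single group, and such genes are counted in all shares. Of these, 515 were called (4.69%): 337 higher in csr-1 RNAi (3.07%) and 178 lower (1.62%). A difference of at least 2-fold was reached by 328, of which 198 were higher and 130 lower. The median over all tested genes was −0.04. All 4 libraries of one group lay beyond all 4 of the other for every called gene. Without any test the same was true of 829 genes higher in csr-1 RNAi (7.55%) and 879 lower (8.01%).

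The higher and the lower genes had different levels. The 2743 tested genes with the highest means, 2171.7 normalised reads or more, held 176 of the higher and 16 of the lower calls. The 2743 genes with means between 42.7 and 337.1 held 48 and 93. Of the 337 higher genes, 194 had a P granule RNAi mean of 1000 or more and a median log2 fold change of 0.84, and 89 had a mean under 50 and a median of 2.25. The P granule RNAi mean is also the base of the fold change, so a low mean and a large fold are not independent. Of the 178 lower genes, 23 had a csr-1 RNAi mean of 1000 or more, 93 a mean between 50 and 1000, and 62 a mean under 50. As a description beside the empty vector, which both RNAi groups share, the csr-1 RNAi mean lay farther from the empty vector mean than the P granule RNAi mean did for 293 of the 337 higher and 165 of the 178 lower genes. The empty vector mean lay between both RNAi means for 210 of the higher genes, so that the P granule RNAi level was below the empty vector there.

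The number of calls changed with the libraries used. It was 1242 without csr-1 RNAi library 3 and 89 without csr-1 RNAi library 1, and it fell below 250 without csr-1 RNAi library orig (235) or 2 (99) and without P granule RNAi library orig (172), 2 (116) or 3 (109); without P granule RNAi library 1 it was 446. None of these fits turned the direction of a call. A fit with a library left out also has a smaller group, and the part of that in the lost calls was not tested. In all, 75 higher and 13 lower genes were called in each of the 8 fits that left out 1 library, and they are named below as called in every such fit. The other called genes lost the call in at least 1 of them.

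**Figure D3:**
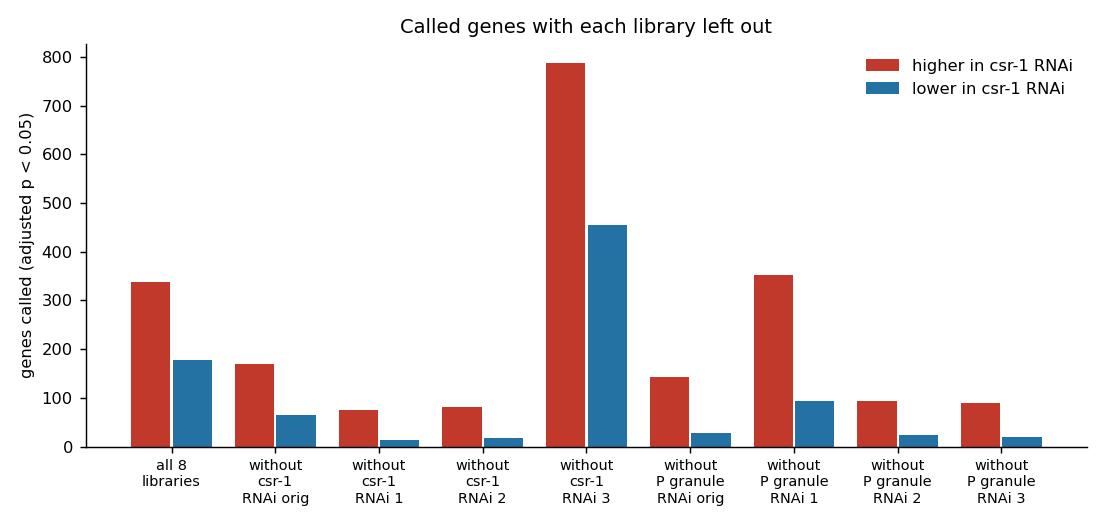
Number of genes called higher and lower in csr-1 RNAi (adjusted p below 0.05) with all 8 libraries and with each library left out in turn. The counts are 337 higher and 178 lower with all libraries, 787 and 455 without csr-1 RNAi library 3, and 76 and 13 without csr-1 RNAi library 1.

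The largest rises in csr-1 RNAi, among called genes with a mean of at least 100 in one group, included genes known for work in neurons. Neuron markers as a list did not share the rise: of 20 tested, 8 had a positive fold change and the median was −0.24. glr-2, which encodes a neuronal glutamate receptor subunit, had 519.8, 399, 335 and 124 normalised reads in the csr-1 RNAi libraries, against 30.2, 5.07, 15.5 and 11 in the P granule RNAi libraries (log2 fold change 4.45, SE 0.60, adjusted p = 0.0066). unc-31, whose product acts in the release of dense-core vesicles, had 1061, 680, 632 and 242 normalised reads in the csr-1 RNAi libraries, against 63.4, 19, 32 and 29.6 in the P granule RNAi libraries (log2 fold change 4.10, SE 0.50, adjusted p = 0.00482). Both groups were apart for both genes, library 3 was the lowest of the csr-1 RNAi libraries for each, and the P granule RNAi levels were near the empty vector means of 11.9 ± 3.19 and 32 ± 9.17. The nuclear hormone receptor gene nhr-11 had 725, 1014, 847 and 555 normalised reads in the csr-1 RNAi libraries, against 38.4, 50.7, 35.1 and 35.7 in the P granule RNAi libraries (log2 fold change 4.24, SE 0.25, adjusted p = 0.000159). The receptor tyrosine kinase gene rol-3 had 277 ± 106 normalised reads in csr-1 RNAi, against 28.4 ± 13.2 in P granule RNAi (log2 fold change 3.32, SE 0.44, adjusted p = 0.00657), and gpa-1, a G protein alpha subunit gene of sensory neurons, had 375 ± 86.7 normalised reads in csr-1 RNAi, against 32.2 ± 11.3 in P granule RNAi (log2 fold change 3.54, SE 0.34, adjusted p = 0.0019). droe-4 (3.86), the cuticlin-like gene cutl-23 (3.77) and T22A3.12 (3.29) complete the largest rises beside the RNAi targets glh-4 and pgl-1. Their csr-1 RNAi means were 432 ± 142, 193 ± 57.8 and 141 ± 14.9 normalised reads, against 31.4 ± 16, 14.4 ± 8.62 and 14.6 ± 7.1 in P granule RNAi. All 8 of these genes were called in every fit that left out 1 library.

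The largest falls in csr-1 RNAi by the same rule were of genes with low to moderate levels. bath-13, a gene of the MATH-BTB family of ubiquitin ligase adaptors, had 9.45, 6.23, 6.59 and 17.3 normalised reads in the csr-1 RNAi libraries, against 167, 88.8, 84.7 and 103 in the P granule RNAi libraries (log2 fold change −3.41, SE 0.41, adjusted p = 0.00458). H11L12.1, an X-linked gene, had 71.2, 103, 132 and 202 normalised reads in the csr-1 RNAi libraries, against 1038, 1407, 727 and 1286 in the P granule RNAi libraries (log2 fold change −3.18, SE 0.34, adjusted p = 0.00315). timm-17B.2, a homologue of a subunit of the mitochondrial inner membrane import channel, had 308, 325, 355 and 537 normalised reads in the csr-1 RNAi libraries, against 2487, 2136, 1759 and 3107 in the P granule RNAi libraries (log2 fold change −2.64, SE 0.23, adjusted p = 0.00116). The groups were far apart for each of the 3 genes. For timm-17B.2 the empty vector mean was 749.9 ± 143, so the RNAi groups lay on opposite sides of it. The F-box gene fbxb-97 (−2.65) and the long noncoding RNA linc-29 (−2.73) were also called in every fit that left out 1 library, with csr-1 RNAi means of 34.8 ± 10.1 and 24.4 ± 8.42 against 220.3 ± 46.4 and 167 ± 61.4 in P granule RNAi. The phospholipid scramblase gene scrm-4 (−2.45), the apical matrix gene noah-2 (−2.34), rhy-1, which encodes a regulator of the hypoxia-inducible factor (−2.23), F19B10.2 (−2.19) and R05H11.1 (−2.15) were the others, and each of these 5 lost the call in at least 1 such fit.

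Spindle genes that were called were all higher in csr-1 RNAi than in P granule RNAi. Of 60 tested genes of the kinetochore, spindle and centromere, 10 were called higher (16.7%) and 0 lower, the median log2 fold change was 0.35 and 53 of the fold changes were positive. The groups did not overlap for 12 of the 60, all of them higher in csr-1 RNAi. Over all tested genes 3.07% were called higher and 1.62% lower, and the groups did not overlap for 7.55% higher and 8.01% lower. Each list below is to be read beside these shares, and a list near them is no result about its members. Lists of abundant genes are also to be read beside the 2743 tested genes of highest mean, with 176 higher and 16 lower. No list was tested against genes of like level, so few or 0 lower calls may go with level alone. The bulk libraries cannot tell apart more cells in division from more RNA per cell, and the same holds for every gene group below. gpr-2 had 3572, 3702, 3884 and 3425 normalised reads in the csr-1 RNAi libraries, against 1204, 1135, 1220 and 1156 in the P granule RNAi libraries (log2 fold change 1.63, SE 0.10, adjusted p = 0.000231), and gpr-1 had 2153, 2325, 2497 and 2293 normalised reads in the csr-1 RNAi libraries, against 769, 761, 765 and 759 in the P granule RNAi libraries (log2 fold change 1.60, SE 0.11, adjusted p = 0.000273). These genes encode a near-identical pair of proteins that link the cell cortex to spindle pulling forces, so reads may be split between them, yet in both the 4 csr-1 RNAi libraries were nearly level and far above the P granule RNAi libraries. spdl-1, which encodes the Spindly protein that brings dynein to kinetochores, had 5144, 5130, 5370.3 and 4356 normalised reads in the csr-1 RNAi libraries, against 1718, 1711, 1792 and 1648 in the P granule RNAi libraries (log2 fold change 1.54, SE 0.11, adjusted p = 0.000396). The spread within each group was a small part of the difference.

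Other spindle genes differed by similar amounts. klp-18, which encodes a kinesin of the acentrosomal meiotic spindle, had 18086, 19373, 19174 and 12946 normalised reads in the csr-1 RNAi libraries, against 7368, 8563, 6679 and 6020.2 in the P granule RNAi libraries (log2 fold change 1.27, SE 0.17, adjusted p = 0.00664). cls-2, a microtubule-stabilising CLASP gene, had 8008 ± 2144 normalised reads in csr-1 RNAi, against 2991 ± 734 in P granule RNAi (log2 fold change 1.41, SE 0.24, adjusted p = 0.0171). hcp-3, which encodes the CENP-A histone of centromeres, had 8026, 8427, 8267 and 9746 normalised reads in the csr-1 RNAi libraries, against 3324, 5804, 3319 and 3060 in the P granule RNAi libraries (log2 fold change 1.2, SE 0.20, adjusted p = 0.0178), and P granule RNAi library 1 was well above the other P granule RNAi libraries. The other 4 called members, chosen after their values were seen, were lin-5, which encodes the NuMA-like partner of the GPR proteins (1.18), the central spindle kinesin gene zen-4 (0.86), the checkpoint kinase gene bub-1 (0.73) and the gamma-tubulin complex gene gip-1 (0.58). let-99, which encodes a spindle positioning protein, is no member of the list and was also chosen after its values were seen. It had 11521 ± 1746 normalised reads in csr-1 RNAi, against 4466 ± 552 in P granule RNAi (log2 fold change 1.36, SE 0.15, adjusted p = 0.00342). The empty vector mean lay nearer the P granule RNAi mean than the csr-1 RNAi mean for 9 of the 10 called list members, and the csr-1 RNAi mean was above the empty vector mean for all 10.

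Most of the spindle calls did not rest on one library. gpr-1, gpr-2, spdl-1, klp-18, lin-5 and zen-4 were called in every fit that left out 1 library. The list held 6 to 24 called genes in these fits, each time 0 lower, and its median lay between 0.29 and 0.52. It held 16 higher and 0 lower without both csr-1 RNAi libraries that stood apart by length, and 12 and 0 after each library was corrected for length, 2 alternatives added after the data were seen. knl-1, a kinetochore scaffold gene chosen after its values were seen, had 8549, 7641, 8219 and 2319 normalised reads in the csr-1 RNAi libraries, against 4379, 3098, 3701 and 2865 in the P granule RNAi libraries (log2 fold change 0.78, SE 0.40, adjusted p = 0.342).

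Cell cycle genes held called members in both directions, and 1 cohesin gene was called. Of 46 tested cell cycle genes, 4 were called higher (8.70%) and 1 lower (2.17%), with a median of 0.26. cdk-1, the mitotic kinase gene, had 15936, 21054, 21814 and 28752 normalised reads in the csr-1 RNAi libraries, against 8390.3, 12319, 10858 and 10392 in the P granule RNAi libraries (log2 fold change 1.04, SE 0.20, adjusted p = 0.0251). The cyclin A gene cya-1 (0.79, SE 0.13), emb-27, which encodes a subunit of the anaphase-promoting complex (0.78, SE 0.13), and dpl-1, which encodes the DP partner of E2F (0.68, SE 0.13), were also higher. cdc-25.2, which encodes a phosphatase that activates cyclin-dependent kinases, had 311, 385, 320.1 and 443 normalised reads in the csr-1 RNAi libraries, against 843, 1069, 749 and 644 in the P granule RNAi libraries (log2 fold change −1.17, SE 0.20, adjusted p = 0.0183). It was the one called in the opposite direction, with no overlap of the groups. None of these 5 calls held in every fit that left out 1 library. Of 25 condensin and cohesin genes, scc-1 was called. This gene of the mitotic cohesin kleisin had 11135, 9719.5, 9520.3 and 7677 normalised reads in the csr-1 RNAi libraries, against 4075, 4370.1, 3649.6 and 3310 in the P granule RNAi libraries (log2 fold change 1.3, SE 0.15, adjusted p = 0.00354), and the call held in every such fit. smc-4, a condensin subunit gene, had 16883, 10398, 10975 and 1223 normalised reads in the csr-1 RNAi libraries, against 7276, 4573, 4439.9 and 3534 in the P granule RNAi libraries (log2 fold change 0.54, SE 0.73, adjusted p = 0.81), with csr-1 RNAi library 3 the lowest of the 8 libraries and the other csr-1 RNAi libraries the highest. Without that library 11 genes of the list were called higher and 0 lower.

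DNA replication genes gave no call. Of 48 tested, 0 were called by limma, 7 had an unadjusted p below 0.05, and the median was 0.10. edgeR with TMM factors called 0, and DESeq2 called 1 in each direction. rnr-2, which encodes the small subunit of ribonucleotide reductase, had 21976 ± 5471 normalised reads in csr-1 RNAi, against 20157 ± 1992 in P granule RNAi (log2 fold change 0.09, SE 0.20). Without csr-1 RNAi library 3, 3 genes of the list were called higher and 1 lower.

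Several genes of meiotic chromosome structure were higher in csr-1 RNAi. Of 35 tested genes of the axis and of synapsis, 5 were higher (14.3%) and 0 lower, with a median of 0.30 and 29 positive fold changes. him-3, which encodes a HORMA-domain protein of the chromosome axis, had 4556, 5469, 5624 and 7031 normalised reads in the csr-1 RNAi libraries, against 2184, 2592, 2635 and 2881 in the P granule RNAi libraries (log2 fold change 1.13, SE 0.16, adjusted p = 0.00757). hal-2, whose product keeps synaptonemal complex assembly tied to pairing, had 3307, 3497, 3426 and 4567 normalised reads in the csr-1 RNAi libraries, against 1442, 1751, 1544 and 1595 in the P granule RNAi libraries (log2 fold change 1.22, SE 0.14, adjusted p = 0.00354). Both calls held in every fit that left out 1 library. The synaptonemal complex gene syp-6 (1.22, SE 0.28), the nuclear envelope gene sun-1 (0.53, SE 0.11) and the pairing centre gene zim-3 (0.52, SE 0.11) were also higher, and each lost the call in 6 or 7 of the 8 such fits. The calls on sun-1 and zim-3 were also lost without the low-value filter and with the replicate block, that on zim-3 on CPM and after length correction as well, and that on syp-6 on CPM. For him-3 the P granule RNAi libraries were all below the empty vector mean of 4019 ± 347 and the csr-1 RNAi libraries all above it.

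Of 47 tested genes of meiotic breaks and crossovers, 3 were called higher (6.38%) and 1 lower (2.13%), with a median of 0.11. dsb-3, which is required for meiotic double-strand breaks, had 2011, 2053, 1991 and 1962 normalised reads in the csr-1 RNAi libraries, against 941, 704, 972 and 995 in the P granule RNAi libraries (log2 fold change 1.16, SE 0.14, adjusted p = 0.00458). The 4 csr-1 RNAi libraries were nearly level, and the call held in every fit that left out 1 library. The BRCA1 partner gene brd-1 (1.14, SE 0.26) and the BRCA2 gene brc-2 (0.75, SE 0.12) were higher, and the nuclease gene ercc-1 was lower (−0.52, SE 0.11). The call on ercc-1 was lost with TMM factors, on CPM, without the low-value filter, with the replicate block and after length correction. spo-11, the gene of the break-forming enzyme, was chosen after its values were seen and had 2214 ± 343 normalised reads in csr-1 RNAi, against 2292 ± 569.8 in P granule RNAi (−0.02, SE 0.22).

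Apoptosis and checkpoint genes gave 2 calls among 34 tested, both higher (5.88%), with a median of 0.00. egl-1, which encodes the BH3-only trigger of cell death, had 395, 204, 179 and 129 normalised reads in the csr-1 RNAi libraries, against 84.1, 53.3, 34.1 and 33.2 in the P granule RNAi libraries (log2 fold change 2.11, SE 0.43, adjusted p = 0.0312). The p53 homologue cep-1 had 5095, 4948, 5105 and 3793 normalised reads in the csr-1 RNAi libraries, against 2618, 1699.8, 2577 and 2702 in the P granule RNAi libraries (log2 fold change 0.99, SE 0.18, adjusted p = 0.0223). The groups did not overlap for either gene, and neither call held in every fit that left out 1 library. The caspase gene ced-3, chosen after its values were seen, had 4070 ± 721 normalised reads in csr-1 RNAi, against 4129 ± 889 in P granule RNAi (−0.01, SE 0.19).

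Among genes of the granule itself, partners of the scaffold were higher in csr-1 RNAi. Of 53 tested germ granule components other than the RNAi targets, 5 were called higher (9.43%) and 0 lower, with a median of 0.04 and 29 positive fold changes. The groups did not overlap for 6 that were higher and 5 that were lower. DESeq2 and limma on CPM each called 6 higher and 3 lower, and after length correction 5 were higher and 3 lower. The fits that left out 1 library called 1 to 7 higher and 0 lower. mip-1 and mip-2 encode LOTUS-domain proteins that bind PGL and GLH proteins. mip-1 had 8836, 9266, 8594 and 8912 normalised reads in the csr-1 RNAi libraries, against 3742, 4307, 3589.7 and 3438 in the P granule RNAi libraries (log2 fold change 1.24, SE 0.11, adjusted p = 0.00116), and mip-2 had 10598, 8925, 8791 and 7236 normalised reads in the csr-1 RNAi libraries, against 4083, 5776, 4225 and 3789 in the P granule RNAi libraries (log2 fold change 1.0, SE 0.17, adjusted p = 0.018). The mip-1 call held in every fit that left out 1 library and the mip-2 call did not. prg-1, the PIWI gene, had 21958 ± 2071 normalised reads in csr-1 RNAi, against 11845 ± 2164 in P granule RNAi (log2 fold change 0.90, SE 0.15, adjusted p = 0.0172). The Vasa-like gene glh-3 had 3741 ± 326 normalised reads in csr-1 RNAi, against 2224 ± 198 in P granule RNAi (log2 fold change 0.75, SE 0.12, adjusted p = 0.0151); it is related in sequence to the RNAi targets glh-1 and glh-4, and its P granule RNAi mean lay below the empty vector mean of 2695 ± 261. The Tudor-domain gene simr-1 (0.67, SE 0.14) was the fifth. deps-1, which is needed for P granule assembly and was chosen after its values were seen, had 9900 ± 1272 normalised reads in csr-1 RNAi, against 8688 ± 2407 in P granule RNAi (0.22, SE 0.20).

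Among small RNA genes, nuclear RNAi and piRNA production each held a called gene. nrde-2, which encodes a nuclear RNAi factor, had 18363, 14132, 17929 and 7056 normalised reads in the csr-1 RNAi libraries, against 3544, 2016, 2706 and 2154 in the P granule RNAi libraries (log2 fold change 2.41, SE 0.32, adjusted p = 0.0066). The groups did not overlap, csr-1 RNAi library 3 was the lowest of its group, and the call held in every fit that left out 1 library. tofu-4, which is required for piRNA transcription, had 1863, 1536, 1709 and 1426 normalised reads in the csr-1 RNAi libraries, against 744, 633, 792 and 741 in the P granule RNAi libraries (log2 fold change 1.16, SE 0.14, adjusted p = 0.00437), and it also held in every such fit. sago-1, a secondary Argonaute gene, was lower, with 61.8, 88.4, 113 and 134 normalised reads in the csr-1 RNAi libraries, against 291, 308, 288 and 275 in the P granule RNAi libraries (log2 fold change −1.60, SE 0.26, adjusted p = 0.0159). In all, 3 of 31 tested genes of piRNA and WAGO silencing were higher (9.68%, prg-1 included) and 1 was lower.

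Of 27 tested genes of mutator foci and exogenous RNAi, 3 were higher (11%) and 0 lower. They were the helicase gene mut-14 (1.09, SE 0.17), the exonuclease gene mut-7 (0.90, SE 0.15) and rde-4, which encodes the double-stranded RNA-binding partner of Dicer (0.60, SE 0.12). None held in every fit that left out 1 library. Of 21 genes of the microRNA and 26G pathways, eri-1, an exonuclease gene, was higher (1.05, SE 0.18). alg-1, a microRNA Argonaute gene on chromosome X, was lower, with 331, 341, 323 and 297 normalised reads in the csr-1 RNAi libraries, against 784, 682, 554 and 480.2 in the P granule RNAi libraries (log2 fold change −0.93, SE 0.19, adjusted p = 0.0302); alg-2 is a close copy, so that value is uncertain, and the call was lost after length correction. The genes that make and accompany the small RNAs of CSR-1 itself gave 1 call among 12. It was fbxb-97, the F-box gene already given, whose place in the list is doubtful, and the other 11 gave 0 calls. ego-1, the polymerase gene, had 9396, 7339, 9352 and 2447 normalised reads in the csr-1 RNAi libraries, against 4542, 2767, 3671 and 2929 in the P granule RNAi libraries (log2 fold change 0.89, SE 0.42, adjusted p = 0.294), where csr-1 RNAi library 3 lay below all P granule RNAi libraries and the other csr-1 RNAi libraries above all of them. Without csr-1 RNAi library 3, 4 of the 12 were called higher.

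The called chromatin genes were higher in csr-1 RNAi. Of 75 tested chromatin modifiers, 6 were higher (8%) and 0 lower, with a median of 0.14. The 2743 tested genes of highest mean had 176 higher and 16 lower, so the direction of these calls is not particular to chromatin genes. lin-61, which encodes an MBT-repeat protein that binds methylated histone H3, had 5678, 5018, 5420.2 and 4822 normalised reads in the csr-1 RNAi libraries, against 2558, 2266, 2754 and 2677 in the P granule RNAi libraries (log2 fold change 1.03, SE 0.12, adjusted p = 0.00342), the one call of the list that held in every fit that left out 1 library. The SET-domain gene set-9 (1.22, SE 0.24), the chromodomain gene cec-6 (1.22, SE 0.25) and mes-6, a gene of the worm Polycomb complex (0.90, SE 0.14), were also higher, as were hcp-3 and the deacetylase gene hda-2, chosen after its values were seen (0.75, SE 0.14). 2 genes outside the list, also chosen after their values were seen, differed by more. morc-1, which encodes a chromatin-compacting ATPase, had 12659, 10421, 11237 and 6837 normalised reads in the csr-1 RNAi libraries, against 3246, 3031, 3378 and 3054 in the P granule RNAi libraries (log2 fold change 1.66, SE 0.19, adjusted p = 0.00342), and tebp-2, which encodes a telomere-binding protein, had 5451, 5134, 5290.2 and 4321 normalised reads in the csr-1 RNAi libraries, against 2139, 2291, 1663 and 1622 in the P granule RNAi libraries (log2 fold change 1.40, SE 0.15, adjusted p = 0.00332). The list held 23 higher and 1 lower gene without csr-1 RNAi library 3 and 1 higher gene without csr-1 RNAi library 1.

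A few histone and nuclear transport genes were called. Among 31 tested histone genes, the linker histone gene hil-4 was higher with 27201, 22706, 18611 and 19237 normalised reads in the csr-1 RNAi libraries, against 8543, 11889.9, 6763 and 6941 in the P granule RNAi libraries (log2 fold change 1.38, SE 0.21, adjusted p = 0.0122), and his-32 was lower with 3.72 ± 3.34 normalised reads in csr-1 RNAi, against 25.9 ± 3.94 in P granule RNAi (log2 fold change −2.73, SE 0.52, adjusted p = 0.0251). Histone genes are near-identical copies and mostly lack a poly(A) tail, so the his-32 value is uncertain, and its call was lost with the replicate block. Every csr-1 RNAi value of his-32 was under the filter of 10, so it was tested only through its P granule RNAi level. Of 50 genes of the nuclear pore and transport, the pore genes npp-15 (0.93, SE 0.15) and npp-1 (0.82, SE 0.11) and the lamin gene lmn-1 (0.77, SE 0.12) were higher (6% of the list) and the importin gene imb-3 was lower (−0.72, SE 0.16). npp-1 had 7827, 7489, 7491 and 7303 normalised reads in the csr-1 RNAi libraries, against 3964, 4943, 4166 and 4043 in the P granule RNAi libraries, with no overlap, and its call held in every fit that left out 1 library. The call on imb-3 was lost after length correction.

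Sex determination and the start of the sperm program differed between the RNAi groups at a few genes. Of 41 tested sex determination genes, 3 were higher (7.32%) and 1 was lower (2.44%), with a median of 0.08. fog-3, which commits germ cells to the sperm fate, had 188, 401, 328 and 249 normalised reads in the csr-1 RNAi libraries, against 44.3, 55.8, 57.8 and 30.8 in the P granule RNAi libraries (log2 fold change 2.59, SE 0.32, adjusted p = 0.00497). The groups did not overlap, and the empty vector mean was 30.6 ± 12, against 47.2 ± 12.5 in P granule RNAi. tra-3, which encodes a calpain that promotes female fate, had 1363, 1907, 1501 and 1583 normalised reads in the csr-1 RNAi libraries, against 617, 688, 813 and 667 in the P granule RNAi libraries (log2 fold change 1.19, SE 0.15, adjusted p = 0.00588). The calls on fog-3 and tra-3 held in every fit that left out 1 library. her-1, which encodes a secreted male-promoting signal, had 34.1 ± 7.58 normalised reads in csr-1 RNAi, against 9.39 ± 4.52 in P granule RNAi (log2 fold change 1.84, SE 0.42, adjusted p = 0.0462), a call lost with edgeR, with no low-value filter and with the replicate block. fem-3, which promotes spermatogenesis, was lower, with 1701, 1842, 2021 and 2369.7 normalised reads in the csr-1 RNAi libraries, against 2967, 2835, 3099 and 3186 in the P granule RNAi libraries (log2 fold change −0.62, SE 0.13, adjusted p = 0.0367). The call on fem-3 was lost on CPM and without the low-value filter. fog-1, which acts beside it in the sperm decision and was chosen after its values were seen, had 1234 ± 301 normalised reads in csr-1 RNAi, against 875 ± 148 in P granule RNAi (0.48, SE 0.21, adjusted p = 0.254).

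Of 19 tested regulators of the sperm program, fog-3 and spe-6 were called, both higher (10.5%). spe-6, which encodes a casein kinase of spermatocytes, had 851, 773, 745 and 744 normalised reads in the csr-1 RNAi libraries, against 305, 283, 315 and 259 in the P granule RNAi libraries (log2 fold change 1.42, SE 0.14, adjusted p = 0.00234). The spread within each group was small, the empty vector mean was 204 ± 41.9, and the call held in every fit that left out 1 library. The transcription factor gene spe-44, chosen after its values were seen, had 679 ± 58.5 normalised reads in csr-1 RNAi, against 763 ± 59.6 in P granule RNAi (−0.17, SE 0.13).

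The genes of sperm structure did not differ between the RNAi groups beyond the spread of the libraries. limma called 0 of 28 tested major sperm protein genes, 0 of 23 of the small sperm protein families and 0 of 25 genes of sperm function. At an unadjusted p below 0.05 the counts were 0, 0 and 2. edgeR with TMM factors called 0 in each list, and DESeq2 called 1 gene of sperm function, higher, and 0 in the other lists. msp-36 had 95.2, 439.6, 2101 and 5043 normalised reads in the csr-1 RNAi libraries, against 1093, 511, 2344 and 957 in the P granule RNAi libraries (−0.37, SE 1.12). csr-1 RNAi held both the lowest and the highest library, and the SE spans more than a 2-fold difference in either direction. The median of the major sperm protein genes was −0.37 with all libraries, 0.65 without csr-1 RNAi library orig and −1.25 without csr-1 RNAi library 3, so its sign changed when a single library was left out. Its sign also turned in the fits to recovered reads, at 0.66 with edgeR and TMM factors. The major sperm protein genes are near-identical copies, and their single values are uncertain.

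Oocyte genes gave few calls. Of 42 tested genes of oogenesis and yolk uptake, zif-1, which encodes an adaptor for degrading germ-plasm zinc finger proteins, was higher (0.64, SE 0.15, adjusted p = 0.047) and 0 were lower. Of 33 eggshell and egg activation genes, perm-1 and egg-6 were higher (6.06%) and 0 were lower. perm-1, which is needed for the permeability barrier of the eggshell, had 7443, 7810.3, 7461 and 6789.7 normalised reads in the csr-1 RNAi libraries, against 4574, 4166, 4151 and 3894 in the P granule RNAi libraries (log2 fold change 0.81, SE 0.11, adjusted p = 0.00609), and the call held in every fit that left out 1 library. egg-6 had 28658 ± 4285 normalised reads in csr-1 RNAi, against 16167 ± 3846 in P granule RNAi (log2 fold change 0.84, SE 0.19, adjusted p = 0.045). The yolk receptor gene rme-2, chosen after its values were seen, had 44859 ± 3517 normalised reads in csr-1 RNAi, against 41579 ± 11562 in P granule RNAi (0.14, SE 0.19), and the chitin-binding proteoglycan gene cpg-2 had 87736 ± 4872 normalised reads in csr-1 RNAi, against 94516 ± 38533 in P granule RNAi (−0.03, SE 0.24). The wide P granule RNAi spread of cpg-2 came from library 1.

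RNA regulators of the germline gave 1 call each way among 51 tested genes. panl-2, a subunit gene of a deadenylase, had 3748 ± 1192 normalised reads in csr-1 RNAi, against 1689.7 ± 384 in P granule RNAi (log2 fold change 1.12, SE 0.25, adjusted p = 0.0395). pab-1, which encodes poly(A)-binding protein, was lower, with 49777, 49272, 44366 and 47669 normalised reads in the csr-1 RNAi libraries, against 72578, 104004, 73471 and 70648 in the P granule RNAi libraries (log2 fold change −0.73, SE 0.15, adjusted p = 0.0349). Every csr-1 RNAi library lay below every P granule RNAi library, and the P granule RNAi mean was nearer the empty vector mean of 91476 ± 15618. Near the threshold stood cgh-1, which encodes the DEAD-box helicase of stored mRNA particles, with 63564, 57138, 63756 and 58384 normalised reads in the csr-1 RNAi libraries, against 103247, 104123, 78353 and 80087 in the P granule RNAi libraries (log2 fold change −0.58, SE 0.14, adjusted p = 0.0582), and the translational repressor gene gld-1, with 26378, 21865, 22479 and 22949 normalised reads in the csr-1 RNAi libraries, against 36106, 42270, 30995 and 29468 in the P granule RNAi libraries (log2 fold change −0.56, SE 0.15, adjusted p = 0.0711). Both had no overlap between the groups and did not pass the test. Of 26 genes of the stem cell niche and Notch signalling, the mitofusin gene fzo-1 was called, higher in csr-1 RNAi (0.61, SE 0.11), and the Notch receptor gene glp-1, chosen after its values were seen, had 6595 ± 2395 normalised reads in csr-1 RNAi, against 5432 ± 802 in P granule RNAi (0.21, SE 0.27).

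**Figure D4:**
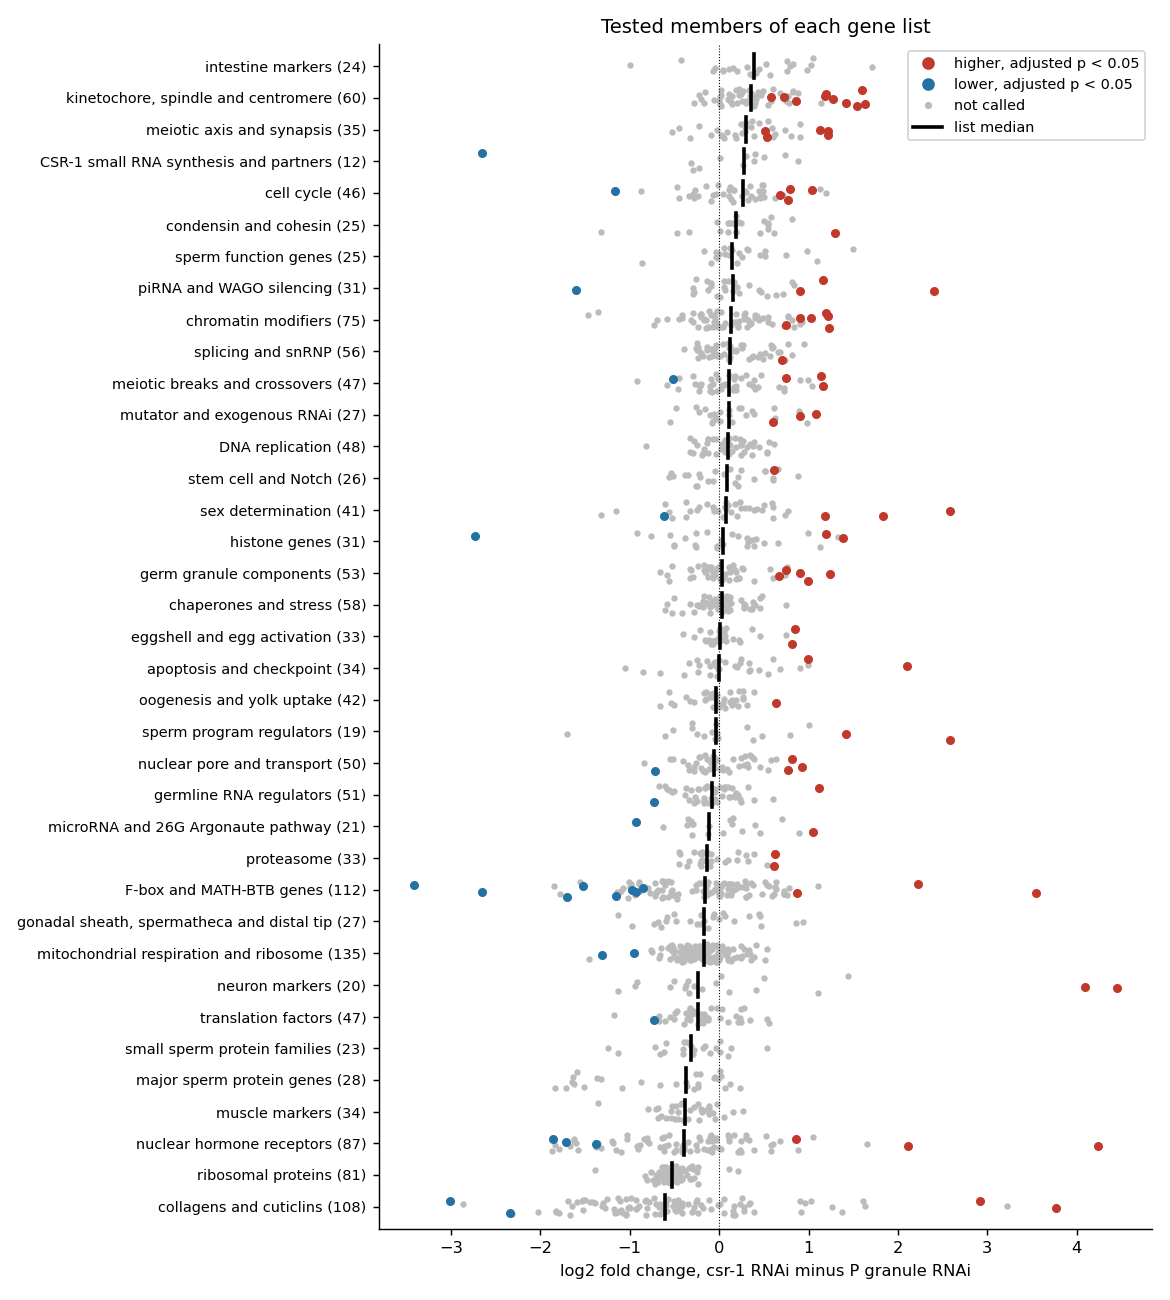
Log2 fold change of every tested member of 37 gene lists, csr-1 RNAi minus P granule RNAi, with the number of tested members in brackets; red and blue points are genes called higher and lower in csr-1 RNAi, grey points were not called, and the bar is the list median. Called spindle, meiotic axis, chromatin and germ granule genes all lie to the right of 0, and the ribosomal protein genes lie to the left with 0 called.

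Genes of the ribosome had negative fold changes that did not pass the test. Of 81 tested ribosomal protein genes, 79 had a negative fold change and the median was −0.53, while limma called 0; 30 had an unadjusted p below 0.05, edgeR with TMM factors called 0 and DESeq2 called 5 lower. rps-8 had 44045, 69027, 73076 and 115367 normalised reads in the csr-1 RNAi libraries, against 75749, 129457, 115548 and 105281 in the P granule RNAi libraries (−0.55, SE 0.29). csr-1 RNAi library orig was the lowest of the 8, and csr-1 RNAi library 3 lay within the P granule RNAi range. Ribosomal protein genes are short, with a median of 530 exonic bases against 1431 over all tested genes, and the length trend of these libraries moves with them; its part in the result was not tested. Without csr-1 RNAi library 3, 31 of the 81 were called lower and the median was −0.72, without csr-1 RNAi library orig 0 were called and the median was −0.32, and after length correction 10 were called lower and the median was −0.35. Of 47 translation factors, pab-1 was the one called, and the median was −0.24.

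Other housekeeping lists held few calls. Of 33 proteasome genes, the base scaffold genes rpn-1 (0.63, SE 0.13) and rpn-2 (0.61, SE 0.14) were higher (6.06%), both lost after length correction, and the median was −0.14. Of 56 splicing genes, prp-31 was higher (0.70, SE 0.13), with a median of 0.12. That call was lost with the replicate block, and the list held 13 higher and 1 lower gene without csr-1 RNAi library 3. Of 58 chaperone and stress genes, limma called 0, and 7 had an unadjusted p below 0.05. edgeR with TMM factors called 1 higher, and DESeq2 called 1 in each direction. hsp-1, the abundant HSP70 gene, had 118236 ± 16846 normalised reads in csr-1 RNAi, against 136263 ± 34504 in P granule RNAi (−0.18, SE 0.20). Of 135 genes of mitochondrial respiration and the mitochondrial ribosome, 2 were lower (1.48%), 0 were higher and the median was −0.17. These 2 were both X-linked. gas-1, which encodes a core subunit of respiratory complex I, had 317, 498, 460.4 and 694 normalised reads in the csr-1 RNAi libraries, against 875, 1425, 1128 and 1361 in the P granule RNAi libraries (log2 fold change −1.31, SE 0.26, adjusted p = 0.0286), and ucr-2.1, a complex III subunit gene, had 382, 456, 394 and 555 normalised reads in the csr-1 RNAi libraries, against 991, 814, 733 and 905 in the P granule RNAi libraries (log2 fold change −0.95, SE 0.17, adjusted p = 0.0223).

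Genes of chromosome X were called mostly lower in csr-1 RNAi. In the germline of hermaphrodites the X is known to be largely silent until late in oogenesis. Of 1234 tested X-linked genes, 6 were called higher (0.486%) and 43 lower (3.48%), with a median of −0.28. Of 9621 autosomal genes, 329 were higher (3.42%) and 132 lower (1.37%), with a median of −0.01. Among single autosomes the share of higher genes ran between 2.90% on chromosome I and 4.33% on chromosome III, and the share of lower genes between 0.825% on III and 1.93% on II. These shares are descriptions with no test between chromosomes. X-linked genes were also of lower level. Over the 8 libraries the median log2 level was 6.23 to 6.79 on X and 8.89 to 9.21 on the autosomes. The 2743 tested genes of any chromosome with means between 42.7 and 337.1 held 48 higher and 93 lower calls. X-linked genes were not compared with autosomal genes of like level, so the part of level in the X-linked shares was not tested. The X-linked share of all normalised reads was 1.45%, 1.61%, 1.49% and 1.53% in the csr-1 RNAi libraries, against 1.65%, 1.59%, 1.72% and 2.02% in the P granule RNAi libraries. One csr-1 RNAi library lay within the range of the P granule RNAi libraries. The empty vector libraries were at 1.49%, 1.55%, 1.8% and 2.04%, a range that overlaps both RNAi groups.

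**Figure D5:**
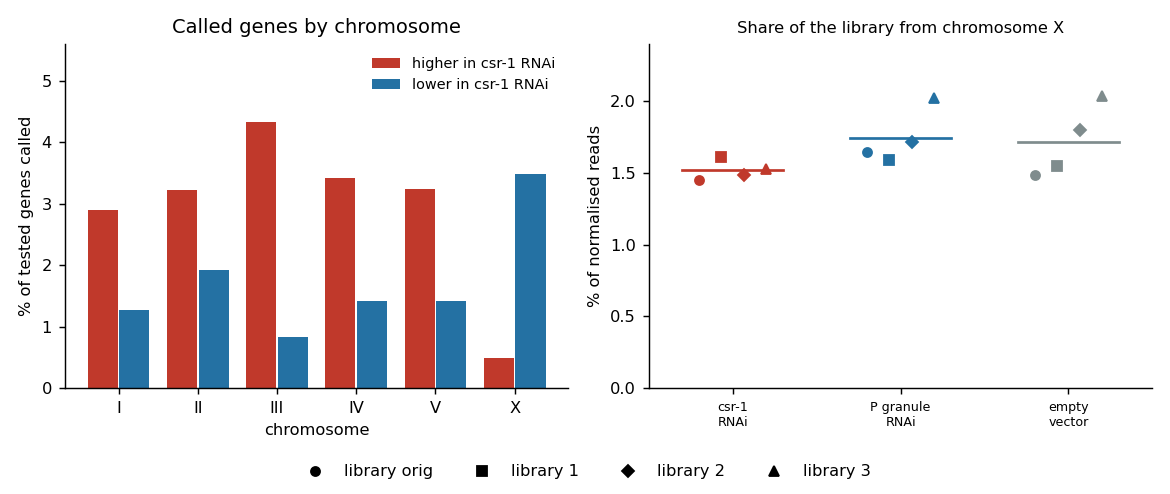
Left, percentage of tested genes called higher and lower in csr-1 RNAi on each chromosome. Right, percentage of normalised reads from chromosome X in each library, with the mean of 4 libraries as a bar. X has the smallest share of higher genes, 0.486%, and the largest share of lower genes, 3.48%, of the 6 chromosomes.

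The 43 lower X-linked genes were of modest level, with a median over genes of 110 normalised reads in csr-1 RNAi and 266 in P granule RNAi. The empty vector mean lay above both RNAi means for 22 of them and below both for 1. Of the 43, 4 were called in every fit that left out 1 library: H11L12.1, given above, C17H11.2, tbc-1 and suca-1. suca-1 encodes a subunit of succinyl-CoA synthetase and had 716, 1103, 1205 and 1356 normalised reads in the csr-1 RNAi libraries, against 2733, 3845, 3247 and 3479.9 in the P granule RNAi libraries (log2 fold change −1.63, SE 0.21, adjusted p = 0.00595). tbc-1 encodes a TBC-domain protein and had 268, 343, 266 and 284 normalised reads in the csr-1 RNAi libraries, against 1085, 783, 808 and 995 in the P granule RNAi libraries (log2 fold change −1.65, SE 0.17, adjusted p = 0.00289). These were named after their values were seen. Of the 6 higher X-linked genes, F59C12.4 was called in every such fit and mrp-4, an ABC transporter gene, was the most abundant, with 25246, 20743, 23911 and 17125 normalised reads in the csr-1 RNAi libraries, against 12474, 11919, 10104 and 8968 in the P granule RNAi libraries (log2 fold change 1.0, SE 0.17, adjusted p = 0.017). The X-linked median lay between −0.35 and −0.22 in the fits that left out 1 library, with 4 to 83 genes lower and 1 to 14 higher. It was −0.28, with 90 lower and 11 higher, after length correction.

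Large gene families that are mostly quiet in the gonad were called in both directions. Of 411 F-box and MATH-BTB genes with an entry, 112 passed the filter, and of these 8 were lower (7.14%) and 3 higher (2.68%), with a median of −0.16. Beside bath-13 and fbxb-97, math-49 (−1.70), fbxa-11 (−1.52) and btb-7 (−1.16) were lower, and fbxa-206 was higher with 1869.9, 2050, 1987 and 2625 normalised reads in the csr-1 RNAi libraries, against 958, 1291, 1189 and 1230.2 in the P granule RNAi libraries (log2 fold change 0.87, SE 0.16, adjusted p = 0.0206). fbxa-11, math-49 and fbxb-103 lost the call without the low-value filter and with the replicate block, and btb-12 lost it with edgeR and RLE factors. btb-12 (3.54) and fbxb-103 (2.22) were higher from P granule RNAi means of 6.42 ± 5.97 and 4.06 ± 1.99, close to the filter. Of 269 nuclear hormone receptor genes 87 passed the filter, and of these 3 were higher and 3 lower (3.45% each), with a median of −0.39 and 25 positive fold changes. Over all tested genes the called shares were 3.07% higher and 1.62% lower. The groups did not overlap for 4 of the 87 that were higher and 26 that were lower, against 829 and 879 of all 10973 tested genes (7.55% and 8.01%). Mean log2 levels over the 8 libraries were 5.56 to 6.04 for the receptor genes and 6.68 to 7.17 for the F-box and MATH-BTB genes. The 2743 tested genes with means between 42.7 and 337.1 held 48 higher and 93 lower calls. Neither family was compared with genes of like level. Without csr-1 RNAi library 3 the calls on these receptor genes were 3 higher and 11 lower. nhr-66 had 4295 ± 734 normalised reads in csr-1 RNAi, against 2349 ± 252 in P granule RNAi (log2 fold change 0.86, SE 0.15, adjusted p = 0.0191), and nhr-112, nhr-161, nhr-181 and nhr-22 were all below 300 normalised reads in every library. The calls on nhr-112 and nhr-181 were lost without the low-value filter and with the replicate block, and that on nhr-181 on CPM as well. Every P granule RNAi value of nhr-112 was under the filter of 10, so it was tested only through its csr-1 RNAi level.

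Markers of other tissues were seldom called. Of 108 tested collagens and cuticlins, 2 were higher (cutl-23 and col-83) and 2 lower (noah-2 and let-653), with a median of −0.61. That is 1.85% each way, against 3.07% higher and 1.62% lower over all tested genes. The median was −0.12 without csr-1 RNAi library orig and −1.18 without P granule RNAi library orig, and 26 and 17 of the 108 were under 1 normalised read in csr-1 RNAi libraries orig and 1. Both lower calls were lost with the replicate block, and that on let-653 with a pseudocount of 0.5 as well. Every P granule RNAi value of col-83 and every csr-1 RNAi value of let-653 was under the filter of 10. Each was thus tested only through its other group. Their summed level was 14641, 35786, 32157 and 43616 in the csr-1 RNAi libraries, against 12515, 44024, 41664 and 110002 in the P granule RNAi libraries, where library 3 was the highest, and 8 of the 217 measured members were at 0 in all 8 libraries. limma called 0 of 24 intestine markers and 0 of 34 muscle markers, with 0 and 1 at an unadjusted p below 0.05, and edgeR with TMM factors and DESeq2 called 0 in both lists. The yolk protein gene vit-6 had 17993, 8681, 7820 and 3121 normalised reads in the csr-1 RNAi libraries, against 1546, 4194, 4014 and 17722 in the P granule RNAi libraries (0.76, SE 0.75). Its levels spanned a wide range within each group. Muscle markers had a median of −0.38 and summed to 0.256% to 0.359% of normalised reads in csr-1 RNAi and 0.306% to 0.371% in P granule RNAi. Of 20 neuron markers, glr-2 and unc-31 were called, both higher (10%), while the list median was −0.24; snb-1, the synaptobrevin gene, had 2681 ± 165 normalised reads in csr-1 RNAi, against 3319 ± 833 in P granule RNAi (−0.28, SE 0.18). Of 27 markers of the gonadal sheath, spermatheca and distal tip, limma called 0 and 4 had an unadjusted p below 0.05; edgeR with TMM factors called 0 and DESeq2 1 in each direction. The sheath gene fln-1, which encodes filamin, had 25197, 13857, 15478 and 5111 normalised reads in the csr-1 RNAi libraries, against 10987, 10542, 8678 and 7944 in the P granule RNAi libraries (0.45, SE 0.42). csr-1 RNAi library 3 was the lowest and csr-1 RNAi library orig the highest of the 8.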

How the data were processed

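Per the labels' protocols, poly(A)-selected RNA went into single-end libraries made without strand marking, so overlapping and antisense genes cannot be told apart. Per the submitters' processing notes, the tools were DESeq 1.1.2.1, HTSeq 0.5.4p3, TopHat2 2.0.8b and SAMtools 0.1.18. The genome build used upstream is not given in the sources used here. In its deposited form the table holds a normalised signal for each gene, reads divided by a library size factor by the authors, and all 187342 values above 0 gave whole reads within 0.01. Its 5 summary entries were left out; reads in no feature were 0.0144% to 0.025% of reads. The labels list 3 samples and the file has 12 columns, mapped by name. Names and chromosomes of 45370 of 45836 entries (98.98%) came from the WBcel235 annotation, of which no coordinates are used.

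Values were taken as log2(value + 1), filtered at 10 in at least 4 of 8 libraries, and tested with limma 3.58.1 in R 4.3.3 (trend and robust, Benjamini-Hochberg threshold 0.05, 4 libraries a group). The script was tested on simulated data. Alternatives were edgeR 4.0.16 and DESeq2 1.42.0 on recovered reads, other scalings, pseudocounts and filters, a replicate block, all 12 libraries, and fits that left libraries out. The members and gene lists were chosen with earlier results of these data known. Named genes are the RNAi targets, the 10 largest rises and falls, up to 5 called genes a direction in each list, and up to 3 of the most abundant members of lists with under 3 called genes; others are said to be chosen after their values were seen. A prefix of spliced leader genes was dropped from the small sperm protein list, where none was tested. Counting error is small at these depths, and the spread between libraries limits the precision. No sequence is shown.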

Additional observations from a re-analysis of the deposited data

Results flagged for a closer look

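In 20 of the 294 groups of 4 values that were tested, one library lay far from the other 3 of its group by Dixon's test at the 95% level. Chance alone gives this in about 1 of 20 groups that are independent and normally distributed. The groups here share the same 8 libraries and many genes were chosen by their values, so the number cannot be set against that rate. P granule RNAi library 1 was the library flagged most often. P granule RNAi library 1 was the highest of its group for cpg-2 (152268 normalised reads), pab-1 (104004), rme-2 (58734), imb-3 (33836), rpn-2 (19230), hcp-3 (5804) and his-32 (31.7). It was the lowest for cep-1 (1700), spo-11 (1442) and taf-11.2 (1054). P granule RNAi library orig was the highest for panl-2 (2262) and fbxa-11 (65.7), and P granule RNAi library 3 was the highest for vit-6 (17722 normalised reads) and in the share of reads aligned to more than one place (2.46%). csr-1 RNAi library 3 was the lowest of its group for lin-5 (9717), dpl-1 (3940), cep-1 (3793) and knl-1 (2319), and the highest for hal-2 (4567). csr-1 RNAi library 1 was the highest for fbxb-103 (33.6).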

How the results depend on the processing

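The 114 called genes named in the text kept their direction in each of the 22 alternatives in which they were tested, 85 of them kept the call in the 12 alternatives that hold all 8 libraries, 45 kept it in every fit that left out 1 library, and 42 kept it in every alternative. The number of called genes moved by more than 1.5 times, against 515, with DESeq2 (1159), with all 12 libraries in the fit (1083), without the libraries named orig (95), after a length correction of each library (875) and without csr-1 RNAi libraries orig and 3 (313), the last 2 chosen after seeing the data; the cause was not tested. The number that differed at least 2-fold moved likewise, against 328, to 578 with DESeq2, 567 with all 12 libraries and 88 without the libraries named orig. Leaving out 1 library gave 89 to 1242 called genes and 81 to 632 that differed at least 2-fold. Other scalings, pseudocounts and filters gave 381 to 541 called genes. The lower calls moved most. With a replicate block 110 genes were lower, against 178 without it, and 317 were higher, against 337. Without the low-value filter 277 of the 381 called genes were higher (72.7%, against 65.4% with it) and the rest were lower. The block, by library name, gave 427 called genes, 351 of them shared with the unblocked fit. Named genes lost the call as follows where all 8 libraries were kept. With the replicate block these were R05H11.1, egl-9, ercc-1, fbxa-11, fbxb-103, fzo-1, gip-1, her-1, his-32, let-653, math-49, nhr-112, nhr-181, noah-2, prp-31, rde-4, rpn-2, sun-1 and zim-3. Without the low-value filter they were ercc-1, fbxa-11, fbxb-103, fem-3, gip-1, her-1, math-49, nhr-112, nhr-181, rde-4, rpn-2, sun-1, zif-1 and zim-3. After length correction they were alg-1, ercc-1, gip-1, imb-3, rpn-1, rpn-2, simr-1 and zim-3. On CPM they were ercc-1, fem-3, nhr-181, panl-2, rde-4, syp-6 and zim-3. With edgeR they were F19B10.2 and her-1 under both factors, rpn-2 under TMM and btb-12 under RLE. With limma and TMM factors it was ercc-1, and with a pseudocount of 0.5 let-653. Deviations of same-named libraries correlated at 0.19, 0.47, 0.69 and 0.02 (orig, 1, 2 and 3). csr-1 RNAi libraries 1 and 2 correlated best with the P granule RNAi library of the same name. csr-1 RNAi libraries orig and 3 correlated best with P granule RNAi libraries 1 (0.39) and 2 (0.62). These values do not settle whether the names pair the libraries. The main fit has no block, and the fit with the block is given beside it. Depth is not the limit for the abundant genes; genes near 10 normalised reads rest on few reads.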

Other observations

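Genes outside the lists were chosen after their values had been seen. 2 regulators of the hypoxia-inducible factor were lower. egl-9, the prolyl hydroxylase gene, had 33.4, 51.1, 102 and 80.9 normalised reads in the csr-1 RNAi libraries, against 316, 232, 236 and 182 in the P granule RNAi libraries (log2 fold change −1.93, SE 0.37, adjusted p = 0.0263), and rhy-1 had 19.6, 36.1, 59.3 and 82 normalised reads in the csr-1 RNAi libraries, against 256, 169, 193 and 217 in the P granule RNAi libraries (log2 fold change −2.23, SE 0.43, adjusted p = 0.0263). taf-11.2, a homologue of a subunit of the general transcription factor TFIID, had 8404, 7668, 6994 and 5333 normalised reads in the csr-1 RNAi libraries, against 1483, 1054, 1521 and 1524 in the P granule RNAi libraries (log2 fold change 2.34, SE 0.18, adjusted p = 0.000588), and that call held in every fit that left out 1 library. mab-3, a transcription factor gene of male development, had 74.9, 38.6, 26.4 and 27 normalised reads in the csr-1 RNAi libraries, against 6.64, 3.81, 2.07 and 1.23 in the P granule RNAi libraries (log2 fold change 3.29, SE 0.54, adjusted p = 0.0159). Every P granule RNAi value of mab-3 was under the low-value filter, so the gene was tested only through its csr-1 RNAi level. The call on mab-3 was lost in 4 of the fits that left out 1 library and without csr-1 RNAi libraries orig and 3.

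In the summary lines of the counting, 2.65% ± 0.203 of reads aligned to more than one place in csr-1 RNAi, against 2.3% ± 0.103 in P granule RNAi (SD, n = 4 each; exact permutation p = 0.0571, two-sided, 0.171 after Benjamini-Hochberg adjustment over 3 summaries, where 0.0286 is the smallest raw p possible).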
